A study of Homo sapiens with 6 samples.

Results

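The genes studied here are the cyclins and cyclin-dependent kinases (CDKs) that carry a cell through G1 and into S phase. They are the D cyclins CCND1, CCND2 and CCND3, the E cyclins CCNE1 and CCNE2, the A cyclins CCNA1 and CCNA2, and the kinases CDK2, CDK4 and CDK6. These 10 genes were picked by symbol from the 64253 genes of the count tables, and 9 of them passed the filter on low counts that kept 16439 genes for testing. The cells were PC-3, a prostate cancer line of human origin that grows without androgen. In the shCdGAP group (3 libraries) they carried a lentiviral short hairpin RNA against CdGAP, a GTPase-activating protein of Rac1 and Cdc42 encoded by ARHGAP31. In the shCon group (3 libraries) they carried a commercial control hairpin. CdGAP-depleted cells were selected with puromycin according to the study's methods, which do not state such selection for the control PC-3 cells. PC-3 cells were cultured in medium with fetal bovine serum. CdGAP-depleted PC-3 cells were then grown out as single-cell clones, and the methods do not state whether control cells were cloned. The study's results single out a clone by its knockdown, but the clone that was sequenced is not named. An effect of the hairpin and a property of a clone therefore cannot be told apart in these libraries. The comparison bears on the study's question of G1 progression.

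As background, D cyclins are induced by growth signals and bind CDK4 and CDK6, which start the phosphorylation of the retinoblastoma protein RB. RB then lets go of E2F transcription factors, which switch on the E cyclins, the A cyclins and the genes for DNA replication. E cyclins with CDK2 complete the phosphorylation of RB and start S phase, and A cyclins with CDK2 carry it on. Inhibitors of the INK4 family block CDK4 and CDK6, and those of the CIP/KIP family block CDK2 complexes. Most of this control acts on protein stability and phosphorylation, which mRNA counts do not measure.

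The targeted gene, ARHGAP31, was lower in shCdGAP cells (log2 fold change -1.14, edgeR quasi-likelihood test with Benjamini-Hochberg adjustment, adjusted p = 8.75e-08). Counted reads per library ranged from 33182796 to 43154039. In a chi-square comparison of libraries within a group, shCdGAP replicate 2 stood apart from shCdGAP replicates 1 and 3 (26.6 and 32.7 per degree of freedom), while every other pair lay between 2.58 and 6.89. The 5 epithelial markers were all expressed, and summed they were 972 to 1226 CPM in shCdGAP and 741 to 762 CPM in shCon libraries. Here CPM is the read count scaled to library size in the usual unit of edgeR. Summed fibroblast markers (DCN, LUM, COL1A1, PDGFRA and PDGFRB, 4 of 5 above 1 CPM in a library) were 65.8 to 81.4 CPM in shCdGAP and 19.5 to 21.1 CPM in shCon libraries. The part of these marker differences in the results was not tested. KLK3 and KLK2, which the androgen receptor drives in prostate epithelium, had no read in any library.

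Of the 9 tested genes, 6 were lower in shCdGAP cells and 0 were higher at an adjusted p under 0.01 (edgeR). Among all tested genes, 22.0% were lower and 24.1% higher at this threshold, 46.2% in either direction. The 6 lower genes were CCNE2, CCNA1, CCNA2, CDK2, CDK4 and CDK6, that is, all 3 kinases, both A cyclins and 1 of 2 E cyclins. CCND1, CCND3 and CCNE1 did not pass, and CCND2 was almost without reads. At an unadjusted p under 0.05, 1 gene was higher, CCND1, and DESeq2 called 0 higher. The 9 genes had a median change of -0.29 on the log2 scale, beside 0.0089 over all tested genes. When an absolute log2 fold change above 1 was also asked for, CCNE2 and CCNA1 passed, both lower, while 4.19% of all tested genes were lower, 8.56% higher and 12.8% either by that rule. The 3 shCdGAP libraries did not overlap the 3 shCon libraries for 7 of the 9 genes (6 lower and 1 higher), and the same held for 67.1% of all tested genes, 32.7% lower and 34.4% higher. In bulk RNA such as this, fewer cells in a phase and less RNA per cell cannot be told apart.

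**Figure D1:**
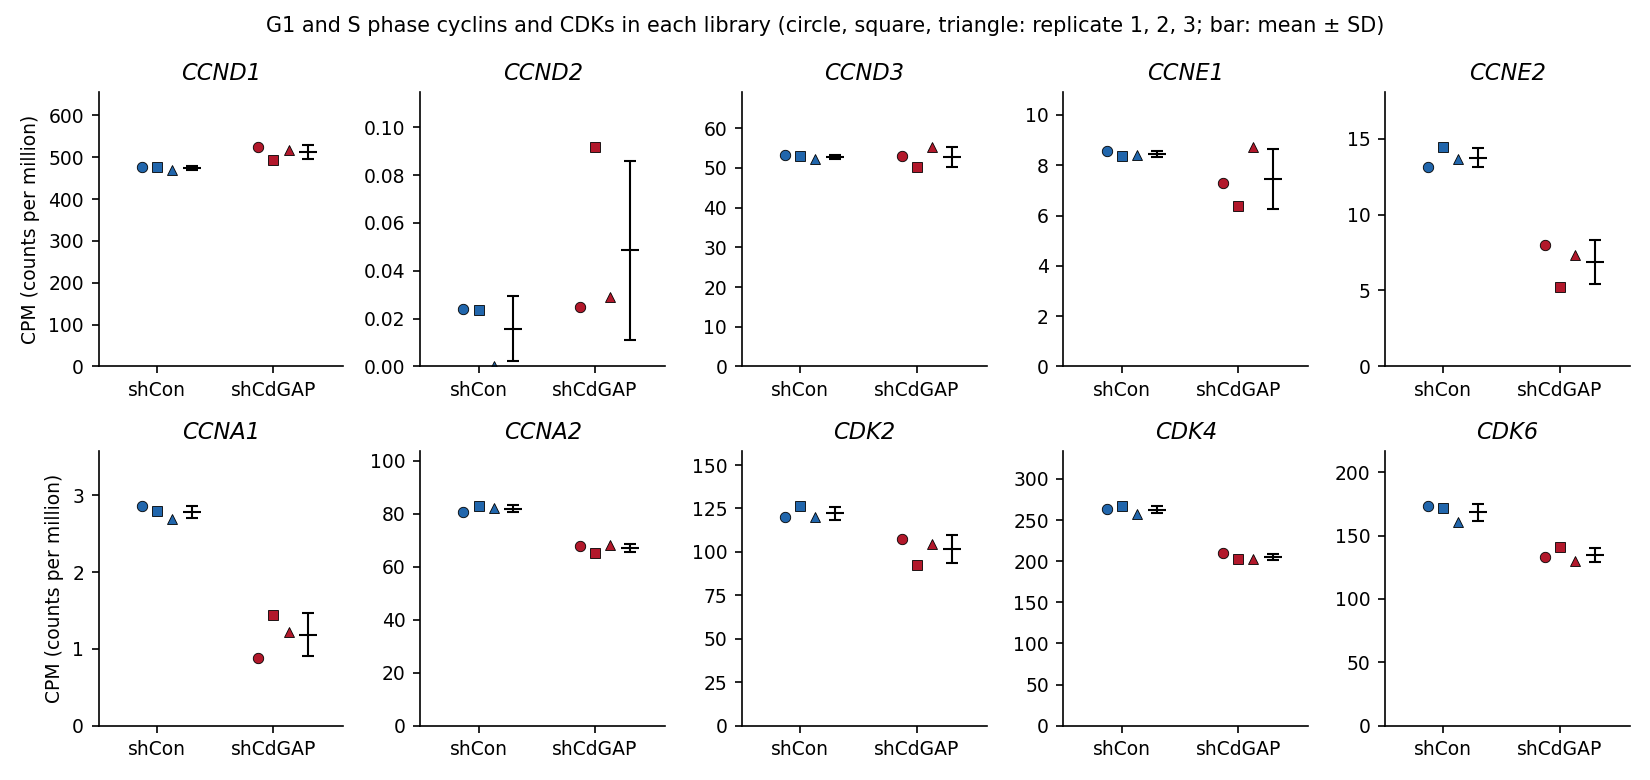
CPM after TMM scaling of the 10 genes in each library, with the vertical axis from 0 and its own scale in each panel. Blue points are shCon and red points shCdGAP libraries, with the mean and SD (n = 3) beside them. The 3 kinases, CCNE2, CCNA1 and CCNA2 lie lower in every shCdGAP library than in any shCon library, CCND1 lies higher, and CCND3 and CCNE1 overlap.

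Levels differed far more between the genes than between the groups. On a scale that also divides by exon length (CPM per kilobase, RPKM), the order in shCon cells was CCND1 (98.4 ± 0.942 RPKM, SD, n = 3), CDK4 (82.9 RPKM), CDK2 (31.4 RPKM), CCNA2 (29.3 RPKM), CDK6 (13.8 RPKM), CCND3 (9.10 RPKM), CCNE1 (3.31 RPKM), CCNE2 (3.13 RPKM), CCNA1 (1.26 RPKM) and CCND2 (0.00221 RPKM). Only CCNE1 and CCNE2 had overlapping ranges in that order among neighbours. The order was the same in shCdGAP cells, where CDK2 (26.1 RPKM) and CCNA2 (24.0 RPKM) overlapped and CCNE2 (1.56 RPKM) no longer reached CCNE1 (2.93 RPKM). CCND1 and CDK4, which pair as proteins, had the highest levels of the 10 genes in both groups.

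The D cyclins are the growth factor sensors of the cycle. CCND1 (ENSG00000110092, chr11:69641087-69654474, plus strand, GRCh38) had 21277, 21539 and 17805 reads in shCdGAP replicates 1, 2 and 3 and 20047, 20164 and 15526 in the shCon replicates. Scaled, these were 525, 495 and 518 CPM against 478, 478 and 470 CPM. The groups did not overlap, with the lowest shCdGAP value in replicate 2. The log2 fold change was 0.11 (standard error 0.0354, 95% interval 0.03 to 0.19), and the adjusted p of 0.0256 (edgeR) missed 0.01. Without shCdGAP replicate 2 CCND1 passed (log2 fold change 0.12, edgeR adjusted p = 2.63e-05), and it also passed when libraries were scaled by their totals alone (0.13, adjusted p = 0.00805). In its other leave-one-out fits the adjusted p reached 0.143 (edgeR).

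CCND3 (ENSG00000112576, chr6:41934933-42050357, minus strand) had 53.0, 50.3 and 55.3 CPM in shCdGAP and 53.2, 53.0 and 52.3 CPM in shCon replicates 1, 2 and 3. The groups overlapped, and the 95% interval of the change ran from -6.85% to 7.35% (edgeR adjusted p = 0.999). CCND2 (ENSG00000118971, chr12:4273772-4305350) had 1, 4 and 1 reads in shCdGAP and 1, 1 and 0 reads in shCon libraries. It was left out of the test, and a difference was not detectable at this depth. Within each library CCND1 took 92.2%, 92.2% and 91.8% of the D cyclin reads per kilobase in shCdGAP and 91.5% in each shCon replicate. This small difference had no overlap between groups and an exact two-sided permutation p of 0.1, the smallest that 3 against 3 libraries can give.

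CDK4 and CDK6 are the catalytic partners of the D cyclins, and both were lower. CDK4 (ENSG00000135446, chr12:57747727-57756013, minus strand) had 8510, 8846 and 6955 reads in shCdGAP and 11065, 11265 and 8510 reads in shCon replicates. These were 210, 203 and 202 CPM against 264, 267 and 258 CPM, with narrow groups far from overlap. The log2 fold change of -0.36 (standard error 0.0335, edgeR adjusted p = 2.35e-05) is a change of -21.9% (95% interval -25.9% to -17.7%). It was the most precisely measured of the 6 called genes. CDK6 (ENSG00000105810, chr7:92604921-92836594, minus strand) had 133, 141 and 130 CPM in shCdGAP and 173, 172 and 161 CPM in shCon replicates, again without overlap. Its log2 fold change was -0.33 (standard error 0.0446, edgeR adjusted p = 0.000241), a change of -20.2% (95% interval -25.6% to -14.4%).

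CDK4 made up 85.9%, 84.8% and 85.8% of the reads per kilobase of CDK4 and CDK6 in shCdGAP replicates and 85.5%, 85.8% and 86.1% in shCon replicates. The groups overlapped (exact two-sided permutation p = 0.7), and the difference of -0.271 percentage points changed sign to 0.0735 without shCdGAP replicate 2. Reads of the D cyclins stood in another proportion to those of their kinases. The summed RPKM of the 3 D cyclins was 1.53, 1.47 and 1.57 times that of CDK4 and CDK6 in shCdGAP libraries and 1.11, 1.10 and 1.13 times in shCon libraries. The D cyclin sum was 115.2 ± 3.62 against 107.5 ± 1.02 RPKM and the kinase sum 75.7 ± 1.32 against 96.7 ± 2.00 RPKM (SD, n = 3 each). The D cyclin ratio was chosen after the values were seen and is given as a description. It depends on no scaling between libraries.

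The promoter of CDK4 in the RefSeq table of GRCh38.p14 is shown because CDK4 is a textbook target of MYC, which binds the E-box CACGTG. The 250 bases before the RefSeq start (chr12:57752311-57752560, minus strand) lie inside the longer Ensembl gene and are written 5′ to 3′ with E-boxes in capitals.
CDK4: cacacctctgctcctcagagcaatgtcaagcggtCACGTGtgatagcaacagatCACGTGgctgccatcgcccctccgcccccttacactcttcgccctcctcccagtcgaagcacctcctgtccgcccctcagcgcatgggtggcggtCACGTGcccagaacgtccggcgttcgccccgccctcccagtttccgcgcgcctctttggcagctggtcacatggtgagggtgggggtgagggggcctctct
The E-box stood at -216, -196 and -101 from the start, and 7.26% of the 35116 promoter windows of the table (250 bases before to 50 after a start) hold at least 1 E-box on either strand. The word is its own reverse complement, so both strands give the same matches. CDK6 had 1 E-box, at 31 bases after the start of the first of its 2 promoter entries. MYC itself had 1827 ± 291 CPM in shCdGAP and 1926 ± 23.1 CPM in shCon cells (SD, n = 3 each), with a log2 fold change of -0.08 and an edgeR adjusted p of 0.548. A match of letters describes the sequence and does not show binding.

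Of the E cyclins, activators of CDK2 at the start of S phase, CCNE2 was lower and CCNE1 did not pass. CCNE2 (ENSG00000175305, chr8:94879770-94896678, minus strand) had 324, 227 and 253 reads in shCdGAP and 552, 610 and 451 reads in shCon replicates. Scaled, these were 7.99, 5.21 and 7.36 CPM against 13.2, 14.5 and 13.7 CPM. The highest shCdGAP library was well below the lowest shCon library, and shCdGAP replicate 2 was the lowest of all. The log2 fold change was -1.01 (standard error 0.142, 95% interval -1.33 to -0.68, edgeR adjusted p = 0.000323), a change of -50.3%. The value lay next to the fold limit, and it was -0.85 without shCdGAP replicate 2 (edgeR adjusted p = 8.95e-13).

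CCNE1 (ENSG00000105173, chr19:29811898-29824308, plus strand) had 7.30, 6.36 and 8.73 CPM in shCdGAP and 8.58, 8.36 and 8.41 CPM in shCon replicates. The 3 shCon libraries were close together and the shCdGAP libraries spread to both sides of them. The log2 fold change of -0.18 (standard error 0.115) did not pass (edgeR adjusted p = 0.197), and its 95% interval, -0.45 to 0.08, leaves room for a decrease like that of the kinases. It was -0.32 without shCdGAP replicate 3 (edgeR adjusted p = 0.0248) and -0.09 without shCdGAP replicate 2 (edgeR adjusted p = 0.342). CCNE2 made up 38.8%, 32.2% and 32.8% of E cyclin reads per kilobase in shCdGAP and 47.1%, 50.1% and 48.5% in shCon replicates. The mean share was 13.9 percentage points lower in shCdGAP (34.6% ± 3.65 against 48.5% ± 1.49, SD, n = 3 each), without overlap (exact two-sided permutation p = 0.1, the smallest possible).

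The 3 genes most like CCNE2 across the 6 libraries, by Euclidean distance of log2 CPM centred on each gene's mean, were ZNF681 (distance 0.139, log2 fold change -1.11), COL4A2 (0.198, log2 fold change -1.06) and DTL (0.242, log2 fold change -0.98). Over 6 libraries in 2 groups, this likeness includes the group difference itself. ZNF681 encodes a zinc finger protein, COL4A2 a chain of basement membrane collagen, and DTL the substrate receptor of a ubiquitin ligase that degrades the licensing factor CDT1 in S phase.

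The A cyclins drive S phase and the entry into mitosis, and both were lower. CCNA1 (ENSG00000133101, chr13:36431830-36442882, plus strand), best known for its role in male meiosis, had 36, 63 and 42 reads in shCdGAP and 120, 118 and 89 reads in shCon replicates. This was 0.888, 1.45 and 1.22 CPM against 2.86, 2.80 and 2.69 CPM, so all libraries were low and the groups did not overlap. The log2 fold change was -1.23 (standard error 0.181, 95% interval -1.64 to -0.82, edgeR adjusted p = 0.000383), a change of -57.3%. CCNA2 (ENSG00000145386, chr4:121816444-121823933, minus strand), the A cyclin of dividing somatic cells, had 67.9, 65.1 and 68.1 CPM in shCdGAP and 80.5, 82.8 and 82.3 CPM in shCon replicates. Each group was tight, and the log2 fold change was -0.29 (standard error 0.0373, edgeR adjusted p = 0.000171), a change of -18.2% (95% interval -22.8% to -13.2%). CCNA2 made up nearly all A cyclin reads, and the share of CCNA1 per kilobase was 2.19% ± 0.553 in shCdGAP and 4.12% ± 0.163 in shCon cells (SD, n = 3 each, exact two-sided permutation p = 0.1, the smallest possible).

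The CCNA2 promoter is shown because it holds the elements for which cell cycle promoters are known, set close together without overlap. The 250 bases before the RefSeq start (GRCh38.p14, chr4:121823884-121824133, minus strand) are written 5′ to 3′, with matches to the motifs in capitals.
CCNA2: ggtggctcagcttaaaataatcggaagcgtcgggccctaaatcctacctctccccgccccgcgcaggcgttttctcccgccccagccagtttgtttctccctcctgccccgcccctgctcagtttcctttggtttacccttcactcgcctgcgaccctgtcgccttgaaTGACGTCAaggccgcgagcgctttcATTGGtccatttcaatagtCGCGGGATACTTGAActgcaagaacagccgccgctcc
From the left, the capitals mark a cAMP response element (TGACGTCA, at -81), a CCAAT box read on the other strand (ATTGG, at -56) and a tandem CDE and CHR element (at -37), a site through which repressor complexes with E2F or RB family proteins are known to act. The letters of the last motif were written down after this promoter had been read, so its match is no finding. Of the 35116 promoter windows, 1.85% hold the response element, 34.6% a CCAAT box and 0.0427% the tandem element, each searched on both strands. None of 4 E2F words (TTTGGCGC, TTTCGCGC, TTTCCCGC and TTTGCCGC, in 3.31% of all windows) was found in the 9 promoter entries of the 6 genes that had one, CCND3, CCNE1, CCNA1, CCNA2, CDK4 and CDK6. Only these exact words were searched, and few promoters hold them, so their absence does not show that a promoter lacks an E2F site. Promoters of CCND1, CCND2, CCNE2 and CDK2 were not analysed here.

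CDK2, the kinase of both E and A cyclins, was lower with more scatter. CDK2 (ENSG00000123374, chr12:55966769-55972784, plus strand) had 4362, 4021 and 3600 reads in shCdGAP and 5042, 5333 and 3968 reads in shCon replicates. These were 108, 92.3 and 105 CPM against 120, 126 and 120 CPM. The groups did not overlap, and shCdGAP replicate 2 was the lowest. The log2 fold change was -0.27 (standard error 0.0582, edgeR adjusted p = 0.00360), a change of -16.9% (95% interval -24.2% to -8.96%). It missed 0.01 when shCon replicate 1, 2 or 3 was left out (edgeR adjusted p = 0.0114, 0.0177 and 0.0115), with log2 fold changes of -0.29, -0.26 and -0.29. Summed E and A cyclin RPKM over that of CDK2 was 1.06, 1.16 and 1.11 in shCdGAP and 1.18, 1.15 and 1.20 in shCon libraries, which overlap. For the E cyclins alone over CDK2 it was 0.169, 0.155 and 0.189 in shCdGAP and 0.206, 0.202 and 0.208 in shCon libraries, which do not overlap. These ratios, too, were chosen after the values were seen.

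**Figure D2:**
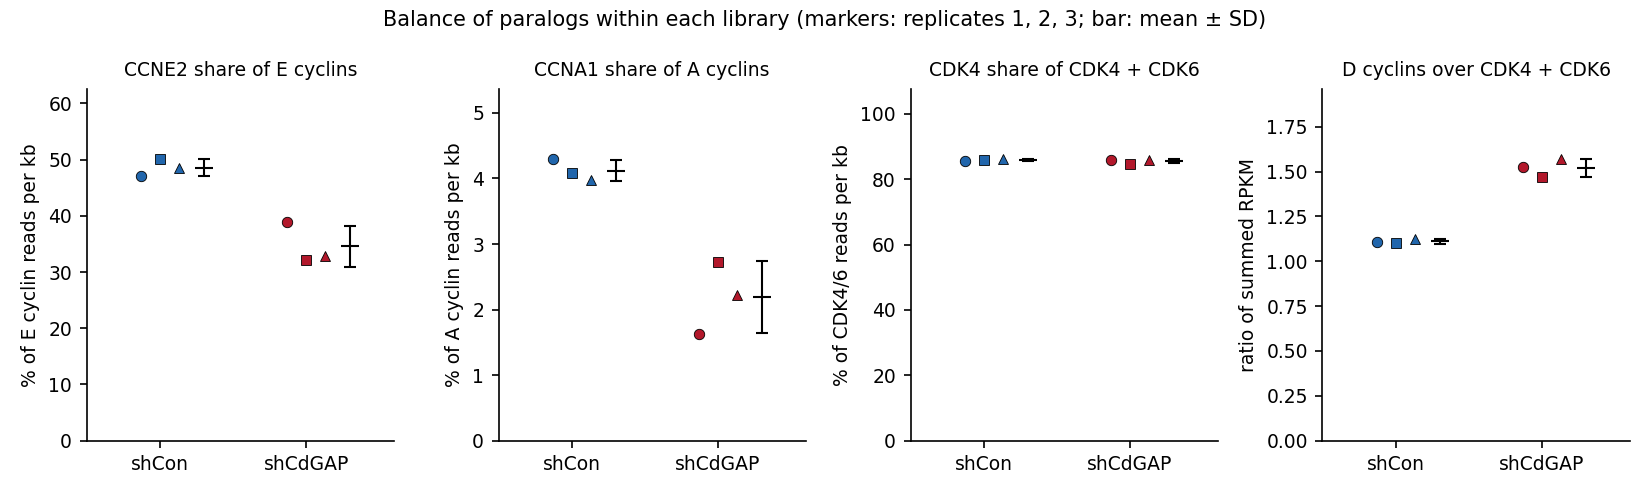
Balance between related genes within each library. From left to right, the axes give CCNE2 as a percent of E cyclin, CCNA1 of A cyclin and CDK4 of CDK4 and CDK6 reads per kilobase, and the ratio of summed D cyclin to CDK4 and CDK6 RPKM, with points per library and mean ± SD (n = 3). The CCNE2 share is 34.6% in shCdGAP against 48.5% in shCon cells, the CDK4 shares overlap, and the D cyclin ratio lies at 1.47 to 1.57 against 1.10 to 1.13.

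To see whether a gene lay in a stretch that was lower as a whole, the 10 nearest tested genes on each side of every member were also read. The 20 neighbours of CCNA1 had a median of -0.45 on the log2 scale, 14 of them were negative, and 11 were called lower and 5 higher at an adjusted p under 0.01 (edgeR). The median was -0.52 with 5 neighbours and -0.26 with 20 on each side, and the fold of CCNA1 was larger than all of these. CCNE2, CDK2, CDK4 and CDK6 went against their surroundings, whose medians were 0.16, 0.13, 0.26 and 0.10. With 20 neighbours on each side these medians were 0.094, 0.036, 0.17 and 0.048. CCND1, at 0.11, also differed in sign from its surroundings (-0.08), but their median was 0.048 with 20 on each side. Around CDK4, 9 of 20 neighbours were called higher and 1 lower. The medians around CCND1, CCND3, CCNE1 and CCNA2 lay between -0.14 and -0.05. The part of neighbouring genes in the change of CCNA1 was not tested.

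**Figure D3:**
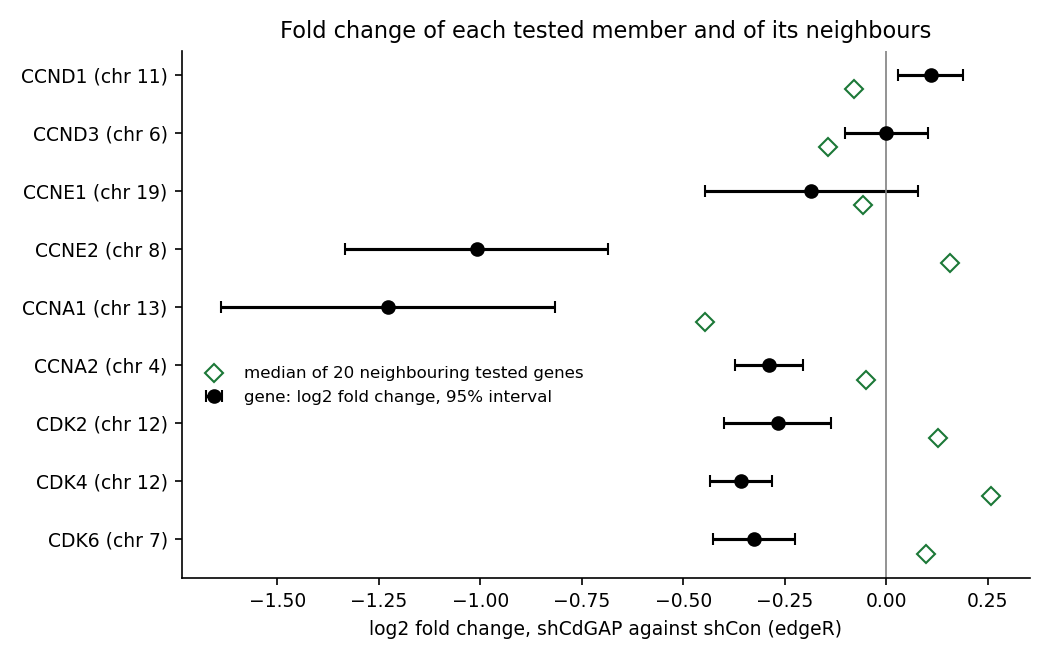
Log2 fold change of shCdGAP against shCon (horizontal axis) for the 9 tested genes (black points, bars are 95% intervals from edgeR) and the median of the 20 neighbouring tested genes (green diamonds). CCNE2 at -1.01 and CCNA1 at -1.23 stand to the left, the other called genes lie between -0.36 and -0.27, and the lowest median of neighbours is that of CCNA1, -0.45.

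The other genes of the pathway were read from 11 lists of 131 genes, 126 of them tested. At an adjusted p under 0.01 (edgeR), 23 were higher and 48 lower, and the median was -0.11 on the log2 scale. With the replicate number as a block there were 25 higher and 41 lower. The number of lower genes was 31 without shCon replicate 1 and 64 without shCdGAP replicate 2. Among all tested genes, 24.1% were higher and 22.0% lower at the same threshold in the main fit. The counts of each list below are to be read beside these shares.

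CDK inhibitors, which restrain the kinases described above, rose in 5 and fell in 1 of 8 genes (median log2 fold change 0.62). The largest changes were those of CDKN1C (p57, 2.05, from 0.426 to 1.76 CPM), CDKN2B (p15, an INK4 inhibitor of CDK4 and CDK6, 1.34), CDKN1A (p21, 1.18, from 14.4 to 32.8 CPM) and CDKN2D (p19, another INK4 protein, 1.03). CDKN2B missed 0.01 when no filter on low counts was used (edgeR adjusted p = 0.0163). The gene that fell was CDKN1B, the CIP/KIP inhibitor p27 of cyclin E and cyclin A complexes with CDK2, by 0.58 on the log2 scale (edgeR adjusted p = 0.000118). CDKN2A, the founding INK4 gene, had a log2 fold change of -0.29 (edgeR adjusted p = 0.207). Without shCdGAP replicate 2, 2 genes of the list fell.

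Among RB, E2F and DP genes, 5 of 13 fell and 2 rose (median -0.16). TFDP1 (-1.77), a dimerization partner of E2F, and RB1 (-1.60), which encodes RB itself, fell most, and both lie on chromosome 13, as CCNA1 does. RB1 went from 79.7 ± 3.17 to 26.3 ± 0.715 CPM (SD, n = 3 each). E2F8 (0.69), a repressor of the family, rose, and E2F2 (-0.42), an activator, fell, although it missed 0.01 without shCon replicate 1, 2 or 3 (edgeR adjusted p = 0.0117, 0.0179 and 0.0179). The number that rose was 1 without any single library other than shCdGAP replicate 2.

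Most genes through which E2F starts DNA replication fell. Of 19 genes on that list, 17 were lower and 0 higher (edgeR), and the median was -0.37 on the log2 scale. At an unadjusted p under 0.05, 18 were lower and 0 higher, and DESeq2 called 18 lower and 0 higher. MCM7 (-0.62), MCM2 (-0.58), MCM3 (-0.56) and MCM6 (-0.55), subunits of the replicative helicase, changed most, more than CCNA2 and less than CCNE2, both of which E2F is also known to induce. The count of lower genes was 10 without shCon replicate 1. MCM5 (-0.37, adjusted p = 0.0164) and MYBL2 (-0.09, adjusted p = 0.105) were the genes that did not pass (edgeR).

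Genes that set kinase activity after assembly fell in 7 and rose in 1 of 15 (median -0.11). CABLES1 (-0.78), which links CDKs to tyrosine kinases, MNAT1 (-0.72), the assembly factor of the CDK-activating kinase, CDC25A (-0.58), the phosphatase that frees CDK2 from inhibition, and WEE1 (-0.36), the kinase that imposes it, were all lower. The gene that rose did not pass without shCdGAP replicate 1, shCon replicate 1 or shCon replicate 2, where 0 did, and 2 rose with no filter on low counts. Of 13 genes for the turnover of cyclins and of p27, 6 fell and 3 rose (median -0.17), and 3 fell without shCdGAP replicate 3, shCon replicate 2 or shCon replicate 3. SKP2 (-0.94), the ubiquitin ligase subunit that sends p27 to degradation, went from 123.3 ± 2.52 to 64.0 ± 2.58 CPM (SD, n = 3 each), beside the -0.58 of p27 mRNA on the log2 scale. USP2 (1.14), a deubiquitinase that stabilizes cyclin D1, and SKP1 (0.38) rose, and CUL3 (-0.32), a scaffold of a ubiquitin ligase for cyclin E, fell. FBXW7, the receptor that marks phosphorylated cyclin E for degradation, had a log2 fold change of -0.00064 (edgeR adjusted p = 0.993).

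Upstream inducers of D cyclins went both ways, with 4 higher and 3 lower of 11 tested (median -0.08). These are 36.4% and 27.3%, beside 24.1% and 22.0% of all tested genes. JUN (0.83), JUND (0.65) and CTNNB1 (0.48, beta-catenin) rose, and TCF7L2 (-0.81), the DNA-binding partner of beta-catenin, fell. Without shCdGAP replicate 2, 6 fell. STAT3 was listed at 0 reads in every library, and MYC is described with CDK4.

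Cyclins and CDKs of other processes moved both ways. Of the tested other cyclins 25% were higher and 25% lower, near the 24.1% and 22.0% of all tested genes. For the other CDKs these shares were 26.3% and 10.5%. Of 12 tested other cyclins, 3 rose and 3 fell (median -0.01), with CCNG1 at 0.47, CCNY at 0.44, CCNC at 0.33 and CCNJ at -0.35, and without shCdGAP replicate 2, 5 fell. Of 19 tested other CDKs, 5 rose and 2 fell (median 0.09), with CDKL2 at 2.58, CDK18 at 1.72, CDK20 at 1.53 and CDK9, the kinase of transcription elongation, at -0.57. Without shCdGAP replicate 2 these counts were 10 and 5, and 1 fell without shCon replicate 1, 2 or 3. CDKL2, with the largest of these changes, had fewer than 10 reads in at least 1 library. The difference between these lists and the members was not tested.

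Among mitotic cyclins and CDK1, CDK1 fell (-0.25, edgeR adjusted p = 0.000421) and 0 of 5 rose (edgeR), while 2 had an unadjusted p under 0.05 and DESeq2 called 0 higher. Without shCdGAP replicate 2, 2 fell, and with no filter on low counts 1 rose. CCNB1, the main mitotic cyclin, had a log2 fold change of 0.18 (edgeR adjusted p = 0.0542). Of 6 proliferation markers, BIRC5 (-0.28) was lower and 0 were higher (edgeR), with 0 higher at an unadjusted p under 0.05 and 0 by DESeq2. BIRC5 missed 0.01 in each leave-one-out fit other than that without shCdGAP replicate 2, where 2 markers were lower, and also with library-size scaling and with at least 10 reads in every library. MKI67 had a log2 fold change of -0.02 (edgeR adjusted p = 0.833). Among 5 tested genes of S phase histones and their activator, H2BC12 (-1.45) and NPAT (-0.18), a substrate of cyclin E with CDK2, were lower and 0 were higher (edgeR, and likewise 0 at an unadjusted p under 0.05 and 0 by DESeq2). NPAT missed 0.01 with the replicate block (edgeR adjusted p = 0.0147) and without shCdGAP replicate 1 or any shCon replicate and with library-size scaling, which left 1 lower gene.

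**Figure D4:**
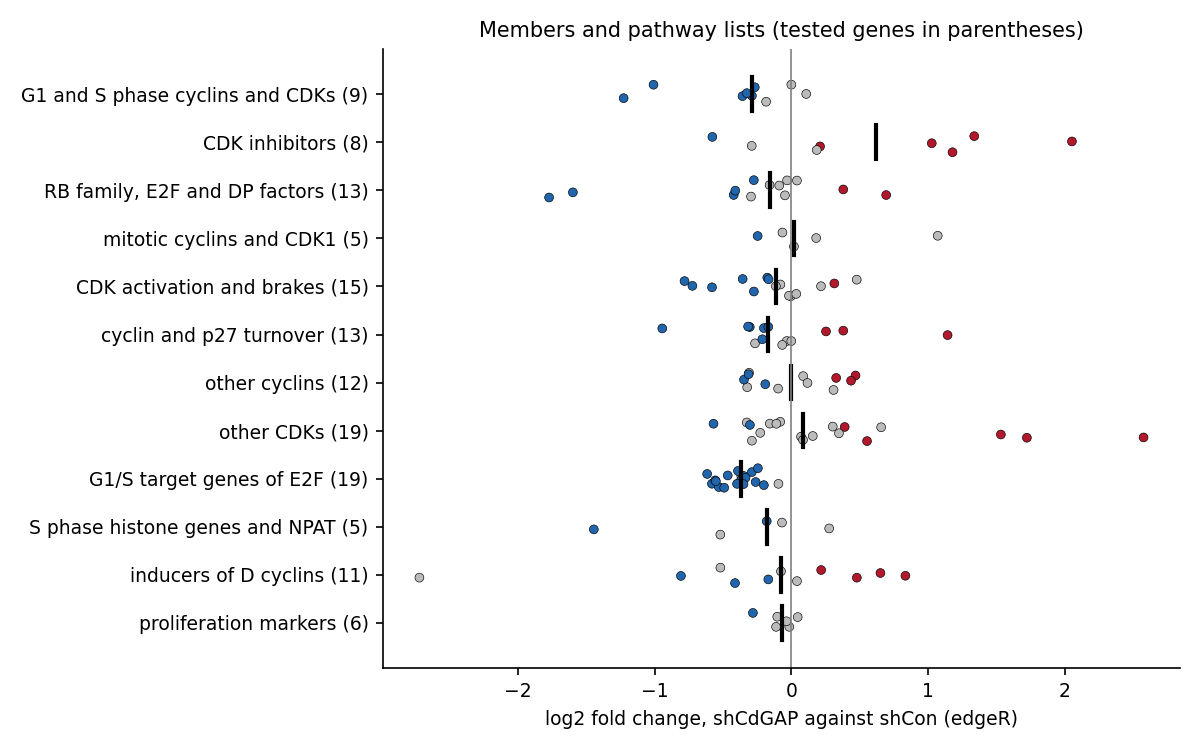
Log2 fold change (horizontal axis) of each tested gene of the 10 G1 and S phase genes and of the 11 pathway lists, with the number tested in parentheses. Red points are genes higher and blue points genes lower at an adjusted p under 0.01 (edgeR), grey points did not pass, and black bars are medians. The median is 0.62 for CDK inhibitors, -0.37 for G1/S target genes of E2F and -0.29 for the G1 and S phase genes.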

How the data were processed

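Per library, the authors deposited a table of raw read counts by gene, 6 tables in all. Per the file headers and the study's methods, STAR 2.5.1b was used for alignment to GRCh38, and reads were counted with featureCounts on Ensembl release 77. The headers give featureCounts 1.6.0 and strand-specific counting of read pairs, the methods 1.4.6 and a single-read kit. Multiply aligned reads were not counted under these settings. The samples are described as independent, without naming separate cultures, so p-values measure only the spread between these samples.

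From the counts, a robust quasi-likelihood model of edgeR 4.0.16 was fitted to all 6 libraries in R 4.3.3 after filterByExpr and TMM scaling, with Benjamini-Hochberg adjustment over 16439 genes. Calls used an adjusted p under 0.01. CPM was scaled by TMM-adjusted totals. Symbols covered 87.3% of the genes. Alternatives were DESeq2 1.42.0, other scalings and filters, an adjusted p under 0.05, each library left out, and the replicate number as a block. Deviations from the group means correlated weakly between same-numbered libraries (0.121, 0.126 and 0.117 over 10282 genes). Between differently numbered libraries the correlations ran from -0.204 to 0.104, the highest for shCdGAP replicate 3 with shCon replicate 1. No label says that the numbers pair the samples. The main fit therefore ignored them, its p-values are unpaired, and the block was only an alternative. The settings of the main edgeR fit were tested on counts simulated with that model's own dispersions. The alternatives were not tested in this way. The 10 genes and the lists were chosen with earlier results of these data known. Named genes are the 10 genes, ARHGAP31, up to 4 genes per list with the largest absolute log2 fold change among those called, the 3 genes most like CCNE2, and genes a sentence turns on (CDKN1B, CDKN2A, MYC, FBXW7, CCNB1, MKI67, STAT3, MCM5 and MYBL2), which were chosen after their values were seen.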

Additional observations from a re-analysis of the deposited data

How the results depend on the processing

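The number of lower genes among the 10 was 6 under DESeq2, each other scaling and filter, the replicate block, no robust estimation and an adjusted p under 0.05, and 5 to 6 with a library left out. The number of higher genes was 1 with library-size scaling and at an adjusted p under 0.05, and 0 to 1 with a library left out. The number past the fold limit was 1 with library-size and with upper-quartile scaling, and 1 to 2 with a library left out, where shCdGAP replicate 2 or shCon replicate 2 made the difference. CCND3, whose fold change is near 0, changed sign to 0.0088 with at least 10 reads in every library, 0.026 with library-size scaling, 0.0028 with no filter, 0.012 with upper-quartile scaling, and ranged from -0.043 to 0.024 with a library left out. The CDK4 share difference ranged from -0.481 to 0.0735 percentage points with a library left out, above 0 without shCdGAP replicate 2. Lower genes on the pathway lists numbered 31 to 64 with a library left out. Of the members, CCNE2, CCNA1, CCNA2, CDK4 and CDK6 passed in each of their 15 alternatives. The replicate block changed the call of no member and, among the named genes, of NPAT only. Depth limits CCND2 and CCNA1 most. The causes of these changes were not tested.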
